A study of Mus musculus with 9 samples.

Results

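The genes described here are those of the major histocompatibility complex (MHC) and of antigen presentation in the mouse epididymis. They were chosen by symbol alone, as every gene of the deposited UMI matrix whose symbol starts with H2-, together with B2m, Cd74, Ciita, Tap1, Tap2, Tapbp, Psmb8, Psmb9 and Nlrc5, which gave 41 of 32195 genes. The rule reads symbols and no measured value. All 41 had at least 1 UMI (unique molecular identifier, a tag that marks 1 captured RNA molecule) in the analysed cells.

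Class I molecules consist of a heavy chain, encoded by H2-K1, H2-D1 and the H2-Q, H2-T and H2-M genes, and of beta-2 microglobulin, encoded by B2m. They are known to show peptides from inside a cell to cytotoxic T cells, with the peptides cut by the immunoproteasome (Psmb8, Psmb9), pumped into the endoplasmic reticulum by Tap1 and Tap2 and loaded with the help of Tapbp. Class II molecules (H2-Aa with H2-Ab1) are known to show engulfed peptides to helper T cells on macrophages, dendritic cells and B cells. Cd74, the invariant chain, and the H2-DM and H2-O proteins control the loading. H2-Eb1 is also a class II chain gene, but H2-Ea, the gene of its partner chain, is annotated as a pseudogene and had 8 UMIs. Nlrc5 and Ciita are the transcriptional co-activators of the 2 classes, and in the epididymis the lumen holds sperm, which the immune system meets only after puberty.

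The series holds single-cell RNA-seq of 9 libraries, 3 each from the caput (head), corpus (body) and cauda (tail) of the epididymis of untreated C57BL/6 males (C57BL/6J in the study's methods). Each segment was taken at 42 days of age (P42) from 1 pool of mice and at 56 days (P56) from 2 pools, replicate 1 and replicate 2, so that the libraries of 1 pool share their mice across segments. Cells were processed with a Singleron microfluidic 3′ kit that labels each molecule with a UMI, and no agent, mutation or sort was applied. At P42 there was 1 library per segment, so age and pool cannot be told apart, and the 2 P56 pools give the only spread within an age.

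The members fall into roles. Of the 3 classical class I genes (H2-K1, H2-D1, B2m), all 3 reached 1000 UMIs, the limit above which a member is described by its values. The same held for 6 of 17 other class I heavy chains, 3 of 5 class II chains, 4 of 6 class II chaperones, 5 of 5 genes of peptide supply and loading, 0 of 2 regulators and 1 of 3 other symbols, which gave 22 genes described and 19 below the limit, with 2 to 990 UMIs each. Of the 41 genes, 37 lie on chromosome 17, the chromosome of the mouse MHC, and B2m, Cd74, Ciita and Nlrc5 lie on other chromosomes. B2m held 1247239 of the 1962153 UMIs of the set (63.6%), followed by H2-K1 with 264029, Cd74 with 148002 and H2-D1 with 128573; these are counts of molecules tagged at the 3′ end and were not divided by length. Several class I heavy chain genes, such as H2-Q6 and H2-Q7, are close copies of each other, as are H2-DMb1 and H2-DMb2, so the split of reads among such copies is uncertain, and H2-K2, H2-Q5, H2-T10, H2-Ea and H2-Bl are annotated as pseudogenes.

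The stretch before the start of transcription is shown for 7 of the class I and class II genes described below. The choice does not follow the changes between segments. H2-Aa, H2-Eb1 and H2-DMb1 were not among the members called between segments in principal cells, while H2-DMa, H2-T23 and Psmb8, which were, are not shown. Each line gives the 180 bases before the RefSeq start on the gene's own strand, in build GRCm38.p6, 5′ to 3′. Capitals mark matches to 5 motifs searched on both strands: the Y box of class II promoters (TGATTGG), the core of the X box (AACNGATG), 2 forms of the interferon-stimulated response element (GAANNGAAA, and a form 1 base longer, GAAA, any 2 bases and GAAA, neither of which holds the other) and an NF-kappaB site (GGGGA followed at once by TTCCC). The windows are H2-Aa at chr17:34287824-34288003 on the minus strand, H2-Eb1 at chr17:34305687-34305866 on the plus strand, H2-DMb1 at chr17:34153011-34153190 on the plus strand, H2-DMb2 at chr17:34145069-34145248 on the plus strand, B2m at chr2:122147507-122147686 on the plus strand, H2-K1 at chr17:34000334-34000513 on the minus strand (1 of 2 listed starts) and H2-D1 at chr17:35262914-35263093 on the plus strand.
H2-Aa: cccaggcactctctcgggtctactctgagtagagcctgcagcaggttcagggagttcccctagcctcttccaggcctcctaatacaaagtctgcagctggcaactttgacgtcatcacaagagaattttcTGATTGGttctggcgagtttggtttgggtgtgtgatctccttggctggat
H2-Eb1: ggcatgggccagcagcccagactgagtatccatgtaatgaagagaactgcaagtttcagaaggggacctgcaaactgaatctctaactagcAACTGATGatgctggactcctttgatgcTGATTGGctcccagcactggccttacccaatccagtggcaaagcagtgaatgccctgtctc
H2-DMb1: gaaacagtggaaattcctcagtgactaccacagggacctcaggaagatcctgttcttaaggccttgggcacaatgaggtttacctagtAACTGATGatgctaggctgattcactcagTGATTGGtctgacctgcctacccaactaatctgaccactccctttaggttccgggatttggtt
H2-DMb2: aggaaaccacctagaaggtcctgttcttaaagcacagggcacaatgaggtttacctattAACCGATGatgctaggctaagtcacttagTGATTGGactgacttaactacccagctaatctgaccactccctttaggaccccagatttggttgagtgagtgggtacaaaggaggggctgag
B2m: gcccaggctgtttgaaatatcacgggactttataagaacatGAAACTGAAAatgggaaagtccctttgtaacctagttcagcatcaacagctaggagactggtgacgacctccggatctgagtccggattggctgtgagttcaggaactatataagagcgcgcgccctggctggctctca
H2-K1: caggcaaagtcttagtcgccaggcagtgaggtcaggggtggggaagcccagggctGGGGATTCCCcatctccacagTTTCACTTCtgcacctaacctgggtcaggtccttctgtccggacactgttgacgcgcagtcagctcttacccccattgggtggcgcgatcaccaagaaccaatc
H2-D1: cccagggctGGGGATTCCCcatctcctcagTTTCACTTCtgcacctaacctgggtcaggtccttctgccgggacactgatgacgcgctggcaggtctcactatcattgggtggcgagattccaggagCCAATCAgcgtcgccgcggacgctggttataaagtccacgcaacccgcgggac

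The X box core was found in 4 of the 30 member genes with a promoter entry, H2-Eb1, H2-Eb2, H2-DMb1 and H2-DMb2, against 1.39% of 32851 promoters of the same length. The Y box was found in 18 of the 30, against 6.31% of all promoters. The first interferon form was found in 8 of the 30 (4.42% of all promoters), the second in B2m and H2-T23 (2.01%), and the NF-kappaB letters in H2-D1, H2-K1, H2-Q6 and H2-Q7 (0.067%). In H2-DMb1 and H2-DMb2 the X box core and Y box stand the same number of bases apart, starting at positions -92 and -63 and at -121 and -92 from the start. A match to these letters is a description and no evidence of binding. The motifs were chosen for genes of this kind and several members are close copies of each other. The counts beside all promoters are therefore no test of the set. Members outside the 30 had no entry and were not searched, among them H2-Ab1, Cd74, Ciita, Tap2 and Nlrc5.

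The 9 libraries held 44869 barcodes and 307987941 UMIs, with 23114756 to 50655384 UMIs per library. A filter on genes, UMIs and mitochondrial share left 42087 cells, of which 631 of a globin-rich cluster were removed, so that 41456 cells with 262840341 UMIs were analysed, and the member genes held 0.747% of these UMIs. Cells were clustered without the member genes, and 30 of 33 clusters were named from marker genes as principal-like, basal-like, clear/narrow-like, macrophage- or monocyte-like, myoid- or fibroblast-like, endothelial-like, halo/T-like, sperm-like and ciliated-like. The suffix is left out below, and the macrophages/monocytes, whose clusters include a dendritic cell-like one, are called phagocytes. Among the unnamed was cluster 2, led by immunoglobulin genes, with 3003 cells, 48.8% of them from the P56 replicate 2 corpus. Counting it as principal cells would raise these from 1352 to 2817 in that library and from 1955 to 2992 in the P56 replicate 1 corpus. The corpus values of principal cells leave it out. Of the 36472 cells of the 7 named populations other than sperm and ciliated-like cells, 4297 were assigned to another population by their own markers. The P42 cauda library stood apart, with the fewest UMIs, the lowest median (3090.5 UMIs per cell against up to 7642.5 in the P56 replicate 2 cauda) and the largest share of phagocytes (19.3% of cells against 2.35% to 11.8%). The segment results are therefore given with and without P42, while the age comparisons rest on it throughout. The libraries shared 143 of 44631 barcode sequences.

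Levels are given in CPM, the UMIs of a gene scaled to a common total over the cells of 1 population in 1 library, for populations with at least 10 cells in that library. Sums of this kind cannot tell fewer expressing cells from less RNA per cell. The wells of the chip that hold the cells also take up free RNA from broken cells. The level in sperm of the same library was therefore set beside the others as a reference, except in the P56 replicate 1 cauda, which had too few sperm. It is not a lower limit, since the class II level of most populations lay below it, as given next. Its use as a reference for free RNA assumes that sperm carry little class I or class II message of their own, which was not tested. Of the 830 sperm, 763 also held markers of another population. The order of populations is a description without a test.

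Class II transcripts were highest in phagocytes. The summed level of the class II chains and Cd74 ranked first there in 9 of 9 libraries, with a median of 5660 CPM against 589.8 CPM in the next population, myoid cells/fibroblasts, a ratio of 9.60. Phagocytes held 9340, 5338 and 3662 CPM in the caput of P42, P56 replicate 1 and P56 replicate 2, then 19414, 10345 and 5660 CPM in the corpus and 16341, 3226 and 2401 CPM in the cauda. Within each segment the P42 library was the highest. Relative to sperm of the same library the phagocyte level was 3.38 to 27.3 times higher (median 10.4), while the median ratio was lowest in principal cells at 0.366 and highest in myoid cells/fibroblasts at 0.829, with clear/narrow (0.487), basal (0.587), halo/T (0.642) and endothelial cells (0.665) between them. The median ratio was thus below 1 in each of these 6 populations. In ciliated-like cells, which only the 3 caput libraries held in number, it was 1.82 and above 1 in 3 of 3 libraries.

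**Figure D1:**
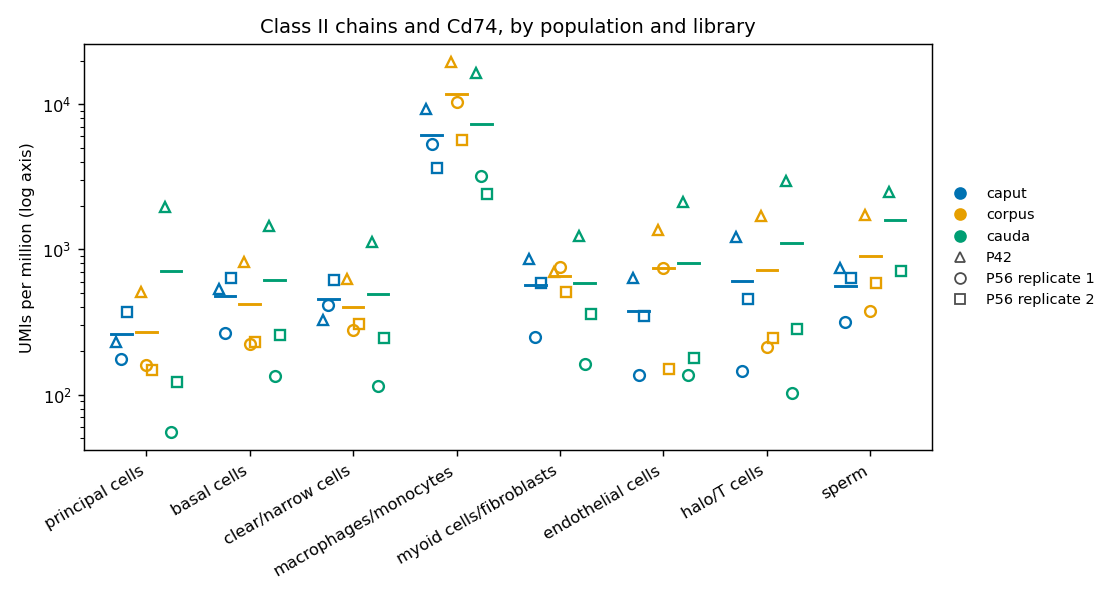
Summed level of the class II chains and Cd74 (CPM, log axis) in 7 populations and sperm, 1 point per library, with colours for segments, markers for pools and lines for the mean of a segment. Phagocytes lie between 2401 and 19414 CPM, above all other populations of the same library.

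Cd74 too was highest in phagocytes and next in myoid cells/fibroblasts. Its level in phagocytes was 5802, 3465 and 2377 CPM in the caput, 10743, 6269 and 3501 CPM in the corpus and 9108, 2100 and 1593 CPM in the cauda (order of libraries as above). A Cd74 UMI was found in 90.9% of 2836 phagocytes (median 5060 UMIs per cell), in 40.0% of 18579 principal cells (median 6079) and in 49.5% of 830 sperm (median 5146). After each cell was thinned to 1000 UMIs the shares were 71.9%, 14.8% and 21.6%, so the share in principal cells was below that in sperm at both depths.

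Ciita, the co-activator of class II genes, was sparse, with 429 UMIs in all, and was found in 7.02% of phagocytes, 0.231% of principal cells and 0.361% of sperm. In phagocytes its level was 48.1 CPM in the P42 corpus and 31.1 CPM in the P42 cauda, and 0.873 to 8.07 CPM in the other 7 libraries. The P42 corpus and cauda libraries were thus far above the rest. H2-DMa and H2-DMb1, which help to exchange Cd74 fragments for peptide, were also highest in phagocytes in 9 of 9 libraries, with medians of 103 and 45.3 CPM. The next medians were 20.6 CPM for H2-DMa, in endothelial cells, and 11.6 CPM for H2-DMb1, in clear/narrow cells.

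Class II transcripts were accompanied by macrophage transcripts in every population. UMIs of H2-Aa, H2-Ab1, H2-Eb1 and Cd74 were divided by those of the macrophage markers C1qa, C1qb, C1qc and Lyz2. In phagocytes the ratio was 1.67 to 2.51 (median 2.16) and in principal cells 1.71 to 3.50 (median 2.50), which was 0.889 to 1.57 times that of phagocytes of the same library. The medians of the other populations were 2.58 in endothelial, 2.69 in basal, 2.76 in clear/narrow, 2.77 in myoid cells/fibroblasts and 2.86 in halo/T cells, and 2.54 in sperm. Clear/narrow cells lay above phagocytes in 9 of 9 libraries and basal and halo/T cells in 8 of 9, with single libraries up to 2.44 times phagocytes in myoid cells/fibroblasts and 2.84 times in halo/T cells. With possible doublets left out the median rose to 5.73 in principal, 5.83 in basal and 5.26 in clear/narrow cells and to 2.69 in phagocytes. Outside phagocytes that setting removes cells by markers that include C1qa, C1qb, C1qc and Lyz2, the divisor of the ratio, and no class II gene. The filter thus raises the ratio there by its design, and no conclusion is drawn from the rise. Of the 11 listed macrophage markers, all 11 were detected in principal cells of every library. The part of free phagocyte RNA in the principal cell signal was not tested further.

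The phagocytes were of 3 clusters that differed in class II level and in their share by segment. Cluster 11 was led by Cx3cr1, a chemokine receptor of resident macrophages, cluster 16 by Fcna, and cluster 24 held the dendritic markers. Cluster 24 reached 33534 CPM of class II chains and Cd74 over all libraries, against 5260 CPM in cluster 11 and 6012 CPM in cluster 16. The P42 cauda gave 57.8% of the cells of cluster 16. Within every corpus and cauda library cluster 16 lay below cluster 11, at 5672 against 13140 CPM in the P42 corpus and 7638 against 12222 CPM in the P42 cauda. The caput libraries held too few cells of cluster 16 to compare. Cluster 24 made up 1.75% to 4.42% of caput phagocytes, 39.6%, 28.7% and 21.7% of corpus phagocytes, and 27.5%, 3.07% and 0.639% of cauda phagocytes. The share in the P42 cauda thus lay within the range of the corpus libraries, while the P56 cauda libraries held few such cells.

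Within a single cluster the P42 libraries still ranked first in each segment. Cluster 11 held 8599, 5074 and 3295 CPM in the caput, 13140, 6349 and 4017 CPM in the corpus and 12222, 3114 and 2501 CPM in the cauda. Cluster 16 held 7638, 1535 and 1653 CPM in the cauda. Each segment had a single P42 library, so this order was not tested.

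**Figure D2:**
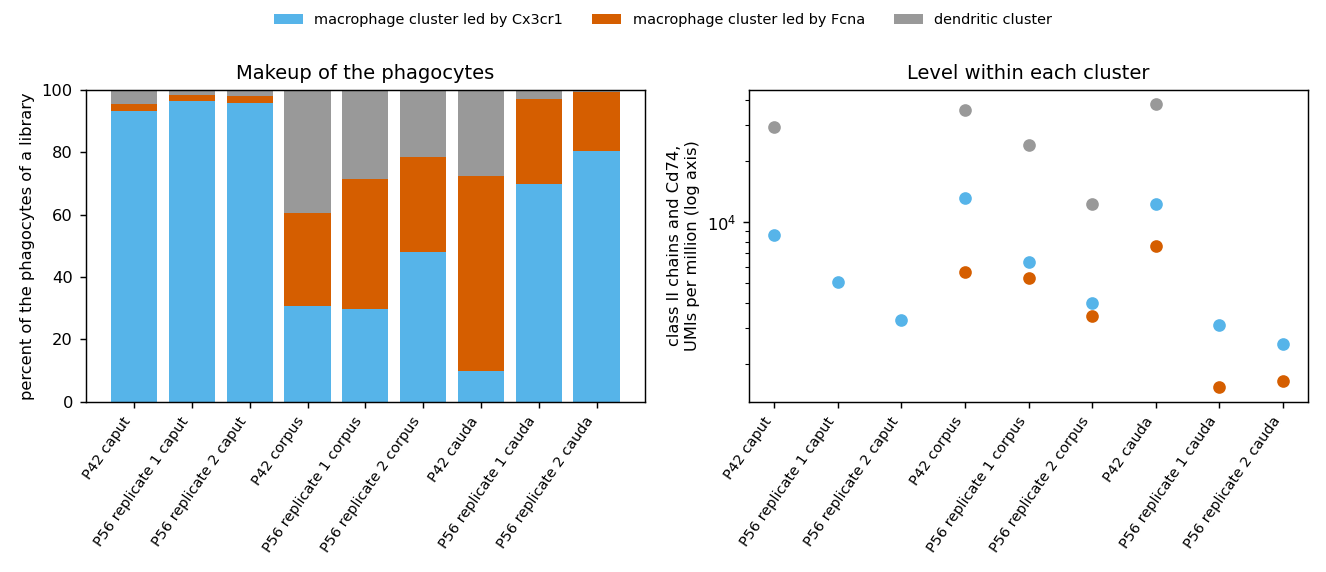
Left, share of the phagocytes of each library (%) in cluster 11, cluster 16 and cluster 24. Right, class II chains plus Cd74 (CPM, log axis) in each cluster where a library has at least 10 of its cells, with cluster 24 above the other clusters of the same library.

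B2m was present in every population at close levels. The median over libraries ran from 2582 CPM in myoid cells/fibroblasts to 4678 CPM in basal cells, and B2m was highest in basal cells in 6 of 9 libraries. Neighbours in this order differed by less than their spread over libraries, which was 2204 to 2982 CPM (SD, n = 9). Here, and for H2-K1 and Psmb8 below, that spread holds the differences between segments and ages that populations of a library share. It does not measure how firm the order is within a library. A B2m UMI was found in 99.2% of principal cells and in 97.0% of sperm, and the median ratio to sperm was 1.02 in myoid cells/fibroblasts to 1.83 in basal cells. Sperm held 1267, 1003 and 1766 CPM in the caput, 2470, 3763 and 4286 CPM in the corpus and 2412 and 8323 CPM in the P42 and P56 replicate 2 cauda, so the level in sperm moved with the segment as well.

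**Figure D3:**
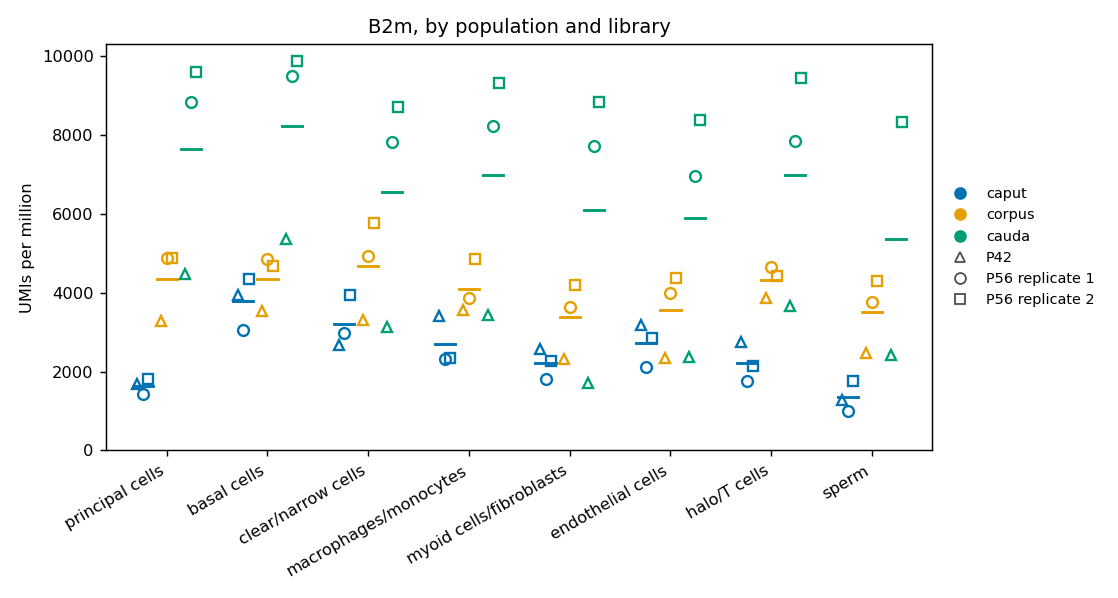
Level of B2m (CPM, linear axis from 0) in 7 populations and sperm, 1 point per library, with colours for segments, markers for pools and lines for the mean of a segment. In every population the P56 cauda libraries are the highest, between 6948 and 9863 CPM, and sperm of the P56 replicate 2 cauda lie at 8323 CPM.

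The classical heavy chains had their lowest medians in principal cells. H2-D1 had a median of 864 CPM in basal cells and 296 CPM in principal cells, with 1062, 864 and 1325 CPM in basal cells of the caput, 781, 537 and 592 CPM in the corpus and 2048, 825 and 921 CPM in the cauda. Principal cells held 223 to 509 CPM, and in each library less than basal cells. H2-K1 had medians of 1571 CPM in halo/T cells, 1517 CPM in clear/narrow cells, 1242 CPM in basal cells and 667 CPM in principal cells, and the first 2 did not differ beyond their spread. Against sperm of the same library the median ratio in principal cells was 1.07 for H2-K1 and 0.887 for H2-D1, against 1.86 and 2.67 in basal cells.

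The medians of 4 of 5 genes of peptide supply and loading and of several other class I chains were highest in endothelial cells, which line the vessels. Psmb8, a catalytic subunit of the immunoproteasome, had 206, 108 and 134 CPM in endothelial cells of the caput, 116, 119 and 106 CPM in the corpus and 264, 129 and 53.8 CPM in the cauda, and was highest there in 5 of 9 libraries. Its medians were 119 CPM in endothelial cells, 107 CPM in halo/T cells and 106 CPM in phagocytes, which did not differ beyond their spread, and 14.5 CPM in principal cells. A Psmb8 UMI was found in 51.6% of endothelial cells, 45.0% of halo/T cells, 45.9% of phagocytes, 9.26% of principal cells and 11.1% of sperm. The share over all principal cells was thus below that in sperm. Among principal cell clusters Psmb8 ran from 3.15 CPM in cluster 5 to 53.8 CPM in cluster 7.

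Psmb9, Tap1, Tap2, H2-T23, H2-Q4, H2-M3 and H2-T22 had the same highest population by their medians (32.3, 14.04, 18.04, 101, 44.5, 16.1 and 11.8 CPM in endothelial cells). Endothelial cells were the highest in 8 of 9 libraries for Psmb9 and Tap2, 7 of 9 for H2-T23 and H2-Q4, 6 of 9 for H2-M3 and H2-T22 and 5 of 9 for Tap1. The P42 cauda, P56 replicate 2 cauda and P56 replicate 2 corpus held only 21, 22 and 30 endothelial cells, so low levels there rest on few UMIs. For H2-M3 and H2-T22 the lowest endothelial library was at 0 CPM. The medians of these 7 genes were lowest in principal cells, at 1.54 to 20.1 CPM. Tapbp, the class I loading bridge, hardly varied, with medians of 58.4 to 70.8 CPM in the 7 populations, lowest in endothelial cells and phagocytes.

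H2-Q7 and H2-Q2 were each highest in a different one of the 7 populations ranked. H2-Q7, the Qa-2 antigen gene, was highest in halo/T cells in 9 of 9 libraries, with 282, 128 and 93.1 CPM in the caput, 500.4, 129 and 81.2 CPM in the corpus and 494, 113 and 57.0 CPM in the cauda. A H2-Q7 UMI was found in 55.4% of 473 halo/T cells (median 3824 UMIs per cell) and in 4.34% of sperm, or 25.2% and 0.969% after thinning. Among the 7, H2-Q2 was highest in clear/narrow cells in 9 of 9 libraries, with 12.0, 9.96 and 11.03 CPM in the caput, 9.08, 7.25 and 9.76 CPM in the corpus and 18.1, 16.05 and 23.2 CPM in the cauda. Ciliated-like cells, which are not among the 7, held 17.8, 6.35 and 11.8 CPM of H2-Q2 in the caput, above clear/narrow cells in P42 and P56 replicate 2 and below them in P56 replicate 1. In sperm H2-Q2 had no UMI in 6 of 8 libraries.

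The segments were compared next, which asks whether the genes of antigen presentation differ along the duct. Each population was summed per library and fitted with the pool as a block (edgeR's quasi-likelihood F test, TMM scaling, Benjamini-Hochberg adjusted p under 0.05 over all genes tested). In principal cells 13 of the 24 members tested were called, against 40.7% of the 15939 genes tested. Of the 13, the caput was the highest segment for 6 (17.9% of all genes), the corpus for 2 (11.5%) and the cauda for 5 (11.3%). The largest difference between segments had a median of 1.65 on the log2 scale over the members tested and 0.88 over all genes. With the 2 P56 pools alone 20 of 24 members were called (61.7% of all genes), and these held all 13. Without P56 replicate 1 the count was 6 and without P56 replicate 2 it was 7. Here and below, a count under an alternative given without the share of all genes cannot tell lost calls of members from lost power.

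Principal cells of the 3 segments were mostly of different clusters, with clusters 8, 10 and 20 mostly from 1 caput library each, cluster 9 from the P42 corpus and cluster 7 from the P42 cauda. Scaling moved the median of all genes by 0.07 (corpus minus caput) and 0.22 (cauda minus caput) on the log2 scale against unscaled sums, and changes are given relative to the scaled median.

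**Figure D4:**
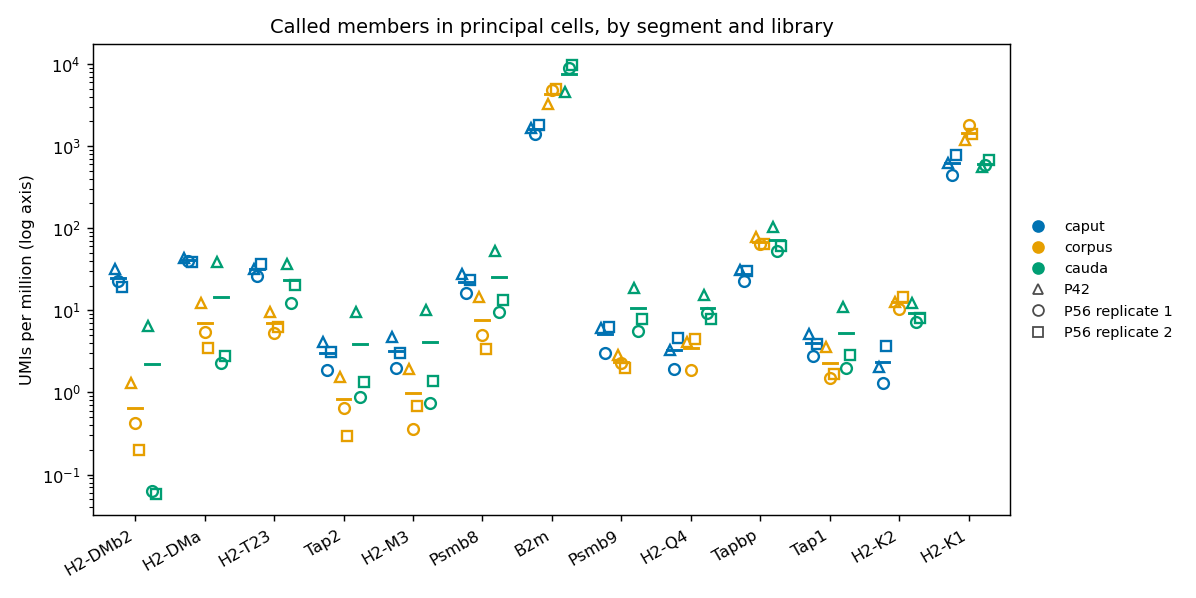
Level (CPM, log axis) in principal cells of each library for the 13 members called between segments, with colours for segments and markers for pools. H2-DMb2 falls from 19.2 to 31.6 CPM in the caput to 0.0580 to 6.51 CPM in the other segments.

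H2-DMb2, a beta chain of the class II peptide exchanger H2-DM, fell the most. Its level in principal cells was 31.6, 23.0 and 19.2 CPM in the caput, 1.28, 0.430 and 0.197 CPM in the corpus and 6.51, 0.0623 and 0.0580 CPM in the cauda. The caput libraries were all above the other 6. The fitted corpus minus caput difference was -5.66 ± 0.89 on the log2 scale (SE, n = 3 per segment; edgeR's quasi-likelihood test, Benjamini-Hochberg adjusted p = 0.00139).

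The same gene was called in basal cells (cauda minus caput -5.61), clear/narrow cells (corpus minus caput -4.74), myoid cells/fibroblasts (cauda minus caput -4.06) and all cells together (-4.17). Caput levels were 12.7 to 24.1 CPM in basal cells and 0, 5.92 and 8.52 CPM in sperm. The caput clusters 8, 10 and 20 of principal cells held 37.3, 31.9 and 51.6 CPM of H2-DMb2, while their class II chains and Cd74 came to 167, 166 and 189 CPM. The part of free RNA from principal cells in the other populations was not tested.

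H2-DMa, the alpha chain, was 43.4, 39.4 and 39.0 CPM in principal cells of the caput, 12.3, 5.45 and 3.45 CPM in the corpus and 38.6, 2.30 and 2.78 CPM in the cauda. The P42 cauda library reached the caput level and the P56 cauda libraries did not. The corpus minus caput difference was -2.80 ± 0.61 on the log2 scale (edgeR's quasi-likelihood test, Benjamini-Hochberg adjusted p = 0.01). Sperm held 29.7, 44.4 and 30.3 CPM of H2-DMa in the caput and 30.4, 14.6 and 3.85 CPM in the corpus, close to principal cells in the caput and above them in the corpus. Clusters 8, 10 and 20 held 57.5, 49.9 and 58.9 CPM.

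B2m rose toward the cauda in principal cells. It was 1675, 1420 and 1802 CPM in the caput, 3285, 4866 and 4889 CPM in the corpus and 4485, 8833 and 9584 CPM in the cauda, with no caput library reaching a library of another segment. The cauda minus caput difference was 2.37 ± 0.38 on the log2 scale (edgeR's quasi-likelihood test, Benjamini-Hochberg adjusted p = 0.00448). It was also called in basal cells (1.36) and halo/T cells (1.68), and over all cells together it missed the threshold (1.84; edgeR's quasi-likelihood test, Benjamini-Hochberg adjusted p = 0.0575). Sperm, as given above, moved the same way.

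The class I heavy chains did not share 1 pattern in principal cells. H2-K1 was highest in the corpus, with 618, 447 and 786 CPM in the caput, 1189, 1783 and 1404 CPM in the corpus and 552, 591 and 667 CPM in the cauda. H2-K2, a pseudogene next to H2-K1 in sequence, differed by 2.54 ± 0.26 on the log2 scale between corpus and caput (edgeR's quasi-likelihood test, Benjamini-Hochberg adjusted p = 0.000361), with the split of reads between the pair uncertain. H2-T23, the Qa-1 gene, was 31.9, 26.3 and 36.2 CPM in the caput, 9.50, 5.30 and 6.30 CPM in the corpus and 36.9, 12.3 and 20.1 CPM in the cauda.

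For H2-T23 the 3 corpus libraries were the lowest of all 9, and the corpus minus caput difference was -2.13 ± 0.20 on the log2 scale (edgeR's quasi-likelihood test, Benjamini-Hochberg adjusted p = 0.000241). H2-M3, which presents formylated peptides, fell by 1.91 on the log2 scale between caput and corpus. H2-Q4 was 1.98 higher in the cauda than in the caput on the log2 scale, with 7.77 to 15.4 CPM in the cauda and 1.86 to 4.57 CPM elsewhere. Sperm of all libraries together held 7.77 CPM of H2-Q4 and 25.0 CPM of H2-T23, within the range of principal cells. The part of free RNA in these changes was not tested.

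The peptide supply genes were lowest in the corpus, except Tapbp, which was lowest in the caput. Psmb8 in principal cells was 27.5, 16.3 and 23.2 CPM in the caput, 14.5, 5.02 and 3.35 CPM in the corpus and 52.5, 9.59 and 13.2 CPM in the cauda, with a corpus minus caput difference of -1.73 ± 0.31 on the log2 scale (edgeR's quasi-likelihood test, Benjamini-Hochberg adjusted p = 0.00534). Sperm of all libraries together held 24.2 CPM of Psmb8. Psmb9 was 2.11 higher in the cauda than in the corpus and Tap2 was lower by -1.99 in the corpus than in the caput, both on the log2 scale. Tap1 was highest in the cauda in the fit, with the P42 library at 10.8 CPM and the other cauda libraries at 1.99 and 2.84 CPM, inside the range of the other segments.

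Tapbp was 31.1, 22.5 and 30.1 CPM in the caput, 77.2, 64.4 and 63.5 CPM in the corpus and 102, 53.2 and 60.2 CPM in the cauda. No caput library reached those of the other segments, and the cauda minus caput difference was 1.53 ± 0.14 on the log2 scale (edgeR's quasi-likelihood test, Benjamini-Hochberg adjusted p = 0.00018). Sperm held 49.5, 23.7 and 30.3 CPM of Tapbp in the caput and 85.4, 62.4 and 52.6 CPM in the corpus.

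Fewer members were called in the other populations. In basal cells 8 of 23 were called (19.5% of all genes), 2 highest in the caput (8.23% of all genes) and 6 in the cauda (5.97%). In clear/narrow cells 6 of 23 were called (15.9% of all genes), of which 4 had the cauda as highest segment (4.78%), 1 the corpus (4.16%) and 1 the caput (6.98%). In myoid cells/fibroblasts 3 of 23 were called (11.3%), 1 highest in the caput (5.75%) and 2 in the cauda (2.85%), and in halo/T cells 1 of 13 (16.6%), B2m, highest in the cauda (4.85%). In endothelial cells 0 of 17 were called (9.13% of all genes) by edgeR's quasi-likelihood test and 0 by DESeq2, with 3 at an unadjusted p under 0.05. Over all cells together 9 of 30 were called (28.9%), with 1 highest in the caput (13.3% of all genes) and 8 in the cauda (7.23%). H2-Q2 was higher in the cauda than in the corpus in basal cells (2.02 on the log2 scale) and in clear/narrow cells (1.24), and H2-Q7 was also called in basal cells, with the cauda highest. With the P56 pools alone 21 of 28 members were called over all cells (58.2% of all genes), 15 of 23 in basal cells (41.2%), 13 of 22 in clear/narrow cells (33.6%), 13 of 18 in myoid cells/fibroblasts (42.4%), 4 of 13 in endothelial cells (19.6%) and 3 of 8 in halo/T cells (38%). With 1 of the P56 pools left out the counts were 0 or 1 in each of these populations. The share of all genes called in those fits is not given, so lost calls cannot be told from lost power. Without the pool as a block 3 members were called in basal cells, 1 in myoid cells/fibroblasts and 5 over all cells, and with possible doublets left out 2 in basal cells and 0 in myoid cells/fibroblasts.

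In phagocytes 2 of 25 members were called, against 12.8% of all genes, both highest in the cauda (3.52%). With either P56 pool left out 0 were called, while DESeq2 and the fit with no filter on low counts called 6 each. The 2 were H2-K2, 1.76 ± 0.31 on the log2 scale higher in the cauda than in the caput (edgeR's quasi-likelihood test, Benjamini-Hochberg adjusted p = 0.00992), and Tapbp, 1.09 ± 0.23 higher (edgeR, Benjamini-Hochberg adjusted p = 0.0196). Without the pool as a block 0 were called, and with possible doublets left out the Tapbp difference turned to -1.59 (edgeR, Benjamini-Hochberg adjusted p = 0.512). That setting removed 2637 of 2836 phagocytes. It left 1 in the P42 cauda, too few to be used, and 10 and 20 in the P56 cauda libraries, so it cannot settle the direction. No class II chain was called. With the P56 pools alone 13 of 18 members were called (38.5% of all genes), of which 9 were highest in the corpus (11% of all genes). H2-Ab1 was then lower in the cauda than in the corpus by -1.69 on the log2 scale, H2-Aa by -1.51 and Cd74 by -1.13. At P56 the phagocytes of the corpus also held the largest share of cluster 24, and the part of that share in these differences was not tested.

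The segment difference was then compared between phagocytes and principal cells in 1 model, with the library as a block. The difference between populations was called for 5 of 29 members, against 0.819% of 14779 genes. All 5 had a corpus minus caput change that was higher in phagocytes than in principal cells, by 4.80 ± 0.57 on the log2 scale for H2-DMb2, 2.86 ± 0.27 for H2-DMa, 2.41 ± 0.41 for H2-DMb1, 1.97 ± 0.28 for Psmb8 and 1.85 ± 0.29 for H2-T23. H2-DMa in phagocytes was 175, 103 and 95.7 CPM in the caput and 347, 138 and 74.8 CPM in the corpus, higher in the corpus in P42 and P56 replicate 1 and lower in P56 replicate 2. The largest adjusted p among the 5 was 0.0234, for H2-DMb1 (edgeR's quasi-likelihood test, Benjamini-Hochberg adjustment). The P56 pools alone gave 10 members (5.22% of all genes), without P56 replicate 1 the count was 2, and without the library as a block it was 0.

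Cluster 11 made up 93.2% to 96.5% of caput phagocytes and 29.8% to 48.0% of corpus phagocytes, with more of cluster 24 in the corpus, as given above. Within cluster 11 H2-DMa was 161, 97.4 and 91.2 CPM in the caput and 157, 42.0 and 34.6 CPM in the corpus, so in both P56 pools it was lower in the corpus. In cluster 24 of the corpus it was 690, 395 and 189 CPM. With clusters 11 and 16 alone, an alternative added after the data were seen, 2 of the 5 members were called, Psmb8 (1.70 ± 0.32 on the log2 scale) and H2-T23 (1.55 ± 0.32). The 3 genes of the class II exchanger then had 1.64 ± 0.35 for H2-DMa, 1.48 ± 0.48 for H2-DMb1 and 1.49 ± 0.82 for H2-DMb2 (edgeR's quasi-likelihood test, Benjamini-Hochberg adjusted p = 0.0642, 0.397 and 0.697). As the share of all genes called in that fit is not given, lost calls cannot be told from lost power.

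The ages were compared within each segment, P56 (2 pools) minus P42 (1 pool), which asks whether these genes change as the first sperm are followed by full sperm output. The spread came from the P56 pairs, and age cannot be told apart from the pool. In the caput 0 members were called by edgeR's quasi-likelihood test in phagocytes (26 tested, 1.97% of all genes), in principal cells (27 tested, 0.651%) and over all cells (34 tested, 4.13%), and 6, 0 and 7 had an unadjusted p under 0.05. DESeq2 called 0, 0 and 1. The P56 libraries of 1 pool share mice, and with these pools as a block 2 members were called in phagocytes (5.76% of all genes), 0 in principal cells and 4 over all cells (13.3% of all genes).

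In the cauda many members were lower at P56. In phagocytes 20 of 26 were lower and 1 was higher, against 22.1% and 19.4% of all genes. In principal cells 15 of 27 were lower and 2 higher, against 15.5% and 17% of all genes, and over all cells 22 of 34 were lower and 3 higher, against 23.1% and 19.9%. DESeq2 called 11 members in phagocytes, against the 21 here, and with possible doublets left out 7 were called over all cells, against 25, and 2 in principal cells, against 17. The median change over the members tested was -1.70, -1.41 and -1.64 on the log2 scale in the 3 fits, with medians over all genes of -0.08, 0.00 and -0.07. Scaling moved the median of all genes by 0.67, 0.80 and 0.76 on the log2 scale against unscaled sums, so changes are relative to that median.

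In phagocytes of the cauda the class II chains fell together. H2-Aa was 2902 CPM at P42 and 403 and 321 CPM at P56, H2-Ab1 was 1855, 231 and 142 CPM, and H2-Eb1 was 2476, 491 and 345 CPM. For each gene the P42 library was above both P56 libraries by a wide margin. H2-Ab1 fell by 2.65 ± 0.34 on the log2 scale (edgeR's quasi-likelihood test, Benjamini-Hochberg adjusted p = 1.67e-07) and H2-Aa by 2.34 ± 0.33.

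The co-activators of both classes and the class II chaperones moved the same way. Ciita fell by 3.60 ± 0.52 on the log2 scale, from 148 UMIs in the P42 cauda to 1 and 5 UMIs at P56, and Nlrc5, with 35, 1 and 2 UMIs, by 2.47. H2-DMb2 fell by 3.59, H2-DMa by 2.87 ± 0.32 and H2-DMb1 by 2.53 on the log2 scale, and H2-Ob, part of the H2-DM inhibitor, went from 48 UMIs to 0 and 2. Cd74 was 9108 CPM at P42 and 2100 and 1593 CPM at P56, a fall of 1.63 ± 0.34 on the log2 scale (edgeR's quasi-likelihood test, Benjamini-Hochberg adjusted p = 0.000233). Of the 5 genes of peptide supply and loading 4 fell, Tap2 by 2.21, Tap1 by 2.00, Psmb8 by 1.76 and Psmb9 by 1.34 on the log2 scale. Tapbp, at 123, 53.2 and 58.4 CPM, was not called (-0.46 on the log2 scale).

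B2m was the 1 member that rose in cauda phagocytes, from 3444 CPM to 8219 and 9310 CPM, by 2.02 ± 0.37 on the log2 scale (edgeR's quasi-likelihood test, Benjamini-Hochberg adjusted p = 5.12e-05). Sperm of the cauda held 2412 CPM of B2m at P42 and 8323 CPM in P56 replicate 2. The share of cluster 24, which had the highest class II level, fell from 27.5% to 3.07% and 0.639% of cauda phagocytes in the same libraries. Cluster 16 went from 62.7% to 27.0% and 18.8%, and cluster 11 from 9.75% to 69.9% and 80.5%. With clusters 11 and 16 alone, an alternative added after the data were seen, 18 members were called in the cauda against 21 with cluster 24, and 0 in the corpus against 6. That alternative leaves the shift between clusters 11 and 16 in place. The share of all genes called under it is not given, so lost calls cannot be told from lost power.

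Over all corpus cells 14 of 34 members were lower at P56 (8.96% of all genes) and 2 were higher (6.6%). The 6 members called in corpus phagocytes were all lower at P56 (3.4% of all genes, with 2.81% higher): Ciita, H2-DMa, H2-Ab1, H2-Eb1, H2-Aa and Tap1. Ciita fell by 2.64 ± 0.48 on the log2 scale, from 100 UMIs to 4 and 6 (edgeR's quasi-likelihood test, Benjamini-Hochberg adjusted p = 0.00136). Without the P56 replicate 2 corpus library the count was 1 and without replicate 1 it was 10. DESeq2 gave 2, and it was 11 each with the P56 pools as a block, with unscaled sums and with cells gated by their own markers. In corpus principal cells 3 members were lower (1.58% of all genes), H2-Ab1, H2-Eb1 and Psmb8, and 1 was higher (1.26%), B2m, and without P56 replicate 1 or 2 of the corpus 1 and 0 were called. With possible doublets left out 0 were called and the Psmb8 change turned to 0.13 on the log2 scale, and with unscaled sums 7 were called.

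In principal cells of the cauda class II genes were lower at P56 as well. H2-Ab1 was 225 CPM at P42 and 4.36 and 9.63 CPM at P56, a fall of 4.21 ± 0.33 on the log2 scale (edgeR's quasi-likelihood test, Benjamini-Hochberg adjusted p = 2.37e-05). H2-Aa fell by 4.03, H2-Eb1 by 3.67, H2-DMb1 by 3.82, Cd74 by 3.47, H2-DMa by 3.12 and H2-Q6 by 2.50 on the log2 scale. H2-DMb2 went from 30 UMIs to 1 and 1, Ciita from 11 to 2 and 1 and H2-Ob from 10 to 1 and 0.

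These levels stand beside those of sperm. The P42 cauda held 19.3% phagocytes, its sperm held 2473 CPM of class II chains and Cd74, and its principal cells, which were mostly of cluster 7 with a median of 1495 UMIs per cell, held 1952 CPM. At P56 the same principal cell level was 55.3 and 123 CPM. The part of free RNA in this fall was not tested. Without cells that held markers of another population the P42 cauda kept 12 principal cells, and the fitted change of 6 class II members turned positive without passing the threshold. B2m was higher at P56 (by 1.84 on the log2 scale), and H2-K1 was called higher (by 0.99) although its CPM was 552 at P42 and 591 and 667 at P56, since that change is relative to the scaled median.

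**Figure D5:**
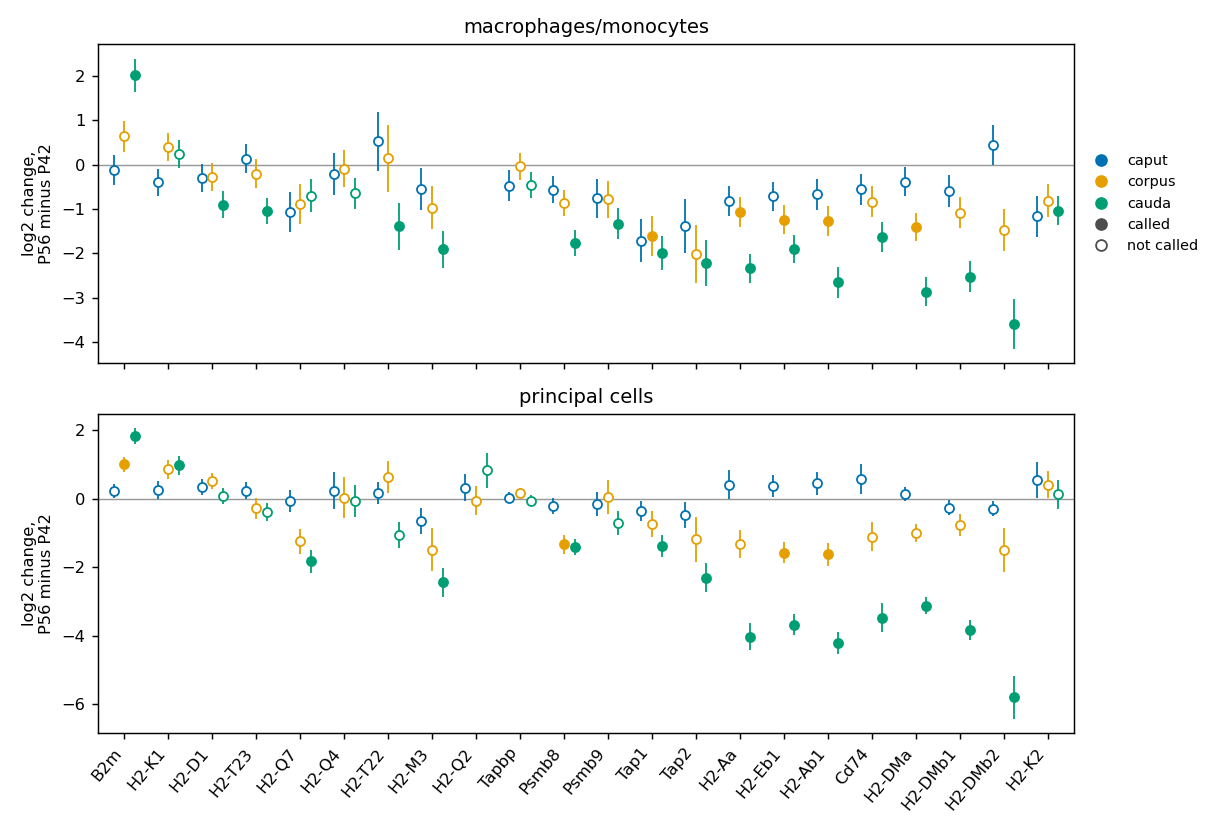
Fitted change from P42 to P56 (log2 scale, bars show the SE) of the described members in macrophages/monocytes (top) and principal cells (bottom), with colours for segments and filled symbols where the edgeR adjusted p is under 0.05. In the cauda B2m rises in both populations, by 2.02 and 1.84, while the class II genes fall.

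Other genes of the pathway were counted from a list of 58 genes. Of all genes 40.7% were called between segments in principal cells, 11.3% with the cauda highest. In the segment comparison of principal cells 3 of 6 class I-like genes outside the H2 symbols were called, all highest in the cauda: Azgp1, a lipid-binding relative of class I heavy chains, Mr1, which presents vitamin metabolites, and Cd1d1, which presents lipids, were 6.13, 3.38 and 2.23 higher than in the corpus on the log2 scale. Azgp1 was 1.33, 2.11 and 2.68 CPM in the caput, 0.128, 0.645 and 1.28 CPM in the corpus and 34.1, 38.5 and 55.9 CPM in the cauda, with the cauda libraries far above the rest. Of 9 genes of class I loading 3 were called (Canx, Psmb10, Psme2), of 7 tested class II processing genes 3 (Ctsl, Ifi30, Lgmn), of 7 class II transcription partners 1 (Nfyb) and of 3 tested co-stimulation genes 1 (Icosl).

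Of 22 interferon response genes 13 were called in principal cells, where 40.7% of all genes were, and 5 in phagocytes, where 12.8% were. In principal cells 9 of the 13 were highest in the cauda (11.3% of all genes). Iigp1, an interferon-induced GTPase, was 3.04 higher in the cauda than in the corpus on the log2 scale, and Cxcl10, a chemokine that draws T cells, was 2.21 higher than in the caput. Ifngr2, a chain of the interferon-gamma receptor, was lower in the cauda than in the caput by -3.08. In phagocytes the 5 were Cxcl10, Gbp7, Ifngr2, Iigp1 and Irf1.

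Between ages in the cauda class II processing genes were called lower at P56, 4 of 7 tested in phagocytes (Ctsb, Ifi30, Lgmn, Marchf1) and 4 of 7 in principal cells (Ctsb, Ctss, Lgmn, Marchf1), with 0 higher in either, where 22.1% of all genes were lower and 19.4% higher in phagocytes and 15.5% and 17% in principal cells. Of the 22 interferon response genes 8 were lower and 2 higher in phagocytes, and 8 lower and 1 higher in principal cells. Irf8, a transcription factor of the macrophage and dendritic lineages, fell by 2.71 in phagocytes and by 3.21 in principal cells on the log2 scale. Of 9 genes of class I loading 2 were higher (Pdia3, Calr) and 2 lower (Psmb10, Psme1) in phagocytes, and 3 were higher (Pdia3, Calr, Canx) and 1 lower (Psmb10) in principal cells. Psmb10, the third immunoproteasome subunit, fell by 2.19 and 1.09 on the log2 scale.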

How the data were processed

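Single-cell RNA-seq UMI counts of 9 mouse epididymis libraries were analysed. According to the submitters' processing notes and the study's methods, the authors aligned reads to GRCm38.p6 with STAR 2.7.3a, assigned them to exons and collapsed UMIs with UMI-tools. The deposited values are whole-number counts per gene and barcode, not normalized. Each barcode column was matched to its sample by the segment and batch number at its start, with batch 0 at 42 days of age and batches 1 and 2 at 56 days, as the study lists them.

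Cells with 300 to 4000 genes, at most 20000 UMIs and under 50% mitochondrial UMIs were kept, and a globin-rich cluster was removed. After removal of the member genes, 3000 variable genes and 50 principal components gave 33 Leiden clusters (resolution 1, leidenalg 0.10.2, igraph 0.11.9), named from marker lists. Cells with markers of several populations were kept as possible doublets, and leaving them out was an alternative; no doublet caller was run. Counts were summed per library and population (at least 10 cells) and tested with edgeR 4.0.16 in R 4.3.3 (quasi-likelihood F test, TMM scaling, low-count filter). The block was the pool between segments and the library between phagocytes and principal cells, with none between ages. P-values were adjusted over all genes by the method of Benjamini and Hochberg with a threshold of 0.05. The script was tested on simulated data. Alternatives used DESeq2 1.42.0, other filters and scalings, cells gated by their own markers, possible doublets left out, a log2 fold limit of 1, each pool left out, and the block added or dropped. Alternatives with macrophage clusters alone, with an immunoglobulin-led cluster counted as principal cells, and without cells gated to another population were chosen after seeing the data.

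The rule for the members reads symbols alone, but it and the lists were chosen with earlier results of these data known. Members with at least 1000 UMIs were described by values in any comparison. Of the members called in a test, up to 10 were named whatever their UMIs, those with the largest change among members that moved alike in every pool. The libraries of 1 pool share their mice across segments, which pairs them, and their deviations from the segment means correlated at 0.311 to 0.815 over all cells, 0.0905 to 0.716 in phagocytes and 0.0480 to 0.691 in principal cells. Libraries of different P56 pools correlated at 0.219 to 0.699 over all cells, so the pairing comes from the shared mice and not from these values. Depth was 23114756 to 50655384 UMIs per library. Intervals and thinned shares cover counting error only, and cells are not replicates. Between segments the p-values measure the spread between libraries left after the pool is taken out. That spread includes any difference between pools, and so between ages, in the segment change. In the comparison of phagocytes with principal cells they measure the spread left after the library is taken out. Between ages they measure the spread between the P56 pools. H2-Ke6, which starts with H2- by symbol only, has no known part in antigen presentation.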

Additional observations from a re-analysis of the deposited data

Results flagged for a closer look

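For 5 members the change between segments differed between phagocytes and principal cells by a test of the difference itself. The phagocyte minus principal cell difference of the corpus minus caput change was 2.86 on the log2 scale for H2-DMa, 2.41 for H2-DMb1, 4.80 for H2-DMb2, 1.85 for H2-T23 and 1.97 for Psmb8. Without the library as a block 0 of the 29 members tested passed, with the P56 pools alone 10 did, and with phagocyte clusters 11 and 16 alone 2 did (Psmb8 and H2-T23). Cluster 24 made up 21.7% to 39.6% of corpus phagocytes and 1.75% to 4.42% of those of the caput, and within cluster 11 H2-DMa went from 97.4 and 91.2 CPM in the P56 caput to 42.0 and 34.6 CPM in the P56 corpus.

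The ciliated-like cells, which were left out of the ranking of populations because only the 3 caput libraries held enough of them, showed a signal above sperm. Their Cd74 level had a median of 692 CPM, with 1.49 to 3.96 times the level in sperm of the same library. The C1q genes and Lyz2 of macrophages were also above sperm in 3 of 3 libraries, by 1.08 to 1.55 times, as was the summed list of macrophage markers, by 1.24 to 2.04 times, and the part of macrophage RNA in the Cd74 level was not tested.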

How the results depend on the processing

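The counts of called members depended on the pools and on the block. They are given without the share of all genes under the same setting, so they cannot tell a change in members from a change in power. Between segments the counts with 1 pool left out were 6 to 20 in principal cells, 0 to 21 over all cells, 1 to 15 in basal cells, 0 to 13 in phagocytes, 1 to 13 in clear/narrow cells, 0 to 13 in myoid cells/fibroblasts, 0 to 4 in endothelial cells and 0 to 3 in halo/T cells, and the highest count of each came without P42. The comparison of phagocytes with principal cells gave 2 to 10. The block was the pool or, between phagocytes and principal cells, the library. Without it the counts were 5 over all cells, 3 in basal cells, 0 in phagocytes and 1 in myoid cells/fibroblasts. Between phagocytes and principal cells the count was 0, and the block changed no other count by over 1.5 times. Between ages, pairing the P56 pools by a replicate block gave 4 over all caput cells, 2 in caput phagocytes and 11 in corpus phagocytes. Leaving out 1 P56 library gave 0 to 3 over all caput cells, 10 to 13 over all corpus cells, 0 to 1 in corpus principal cells and 1 to 10 in corpus phagocytes.

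With possible doublets left out, 2 members were called in basal cells, 1 in phagocytes and 0 in myoid cells/fibroblasts between segments, and between ages 1 over all caput cells, 7 over all cauda cells, 0 in corpus principal cells and 2 in cauda principal cells. The same setting reversed Tapbp between cauda and caput in phagocytes (-1.59 on the log2 scale), H2-DMb1 between ages over all cauda cells (1.16), Psmb8 in corpus principal cells (0.13) and, in cauda principal cells, H2-Ab1 (5.59), H2-Aa (6.08), H2-DMb1 (3.25), H2-Eb1 (6.64), Cd74 (0.49) and H2-DMa (4.61), the cause of which was not tested. It removed 35645 of 41456 cells. The class II ratio per macrophage marker UMI rose to 5.73 in principal cells, 5.83 in basal cells and 5.25 in myoid cells/fibroblasts. It rose to 5.26 in clear/narrow cells and 2.69 in phagocytes. Outside phagocytes the setting removes cells by the same markers that form the divisor, so no conclusion is drawn from that rise. The cause of the rise in phagocytes was not tested.

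DESeq2 gave 6 members in phagocytes between segments, and between ages 1 over all caput cells and 2 and 11 in corpus and cauda phagocytes. No filter on low counts gave 6 in phagocytes, 7 in myoid cells/fibroblasts, 2 in endothelial cells and 2 in halo/T cells between segments and 3 over all caput cells between ages. Unscaled sums gave 4 over all caput cells, 7 in corpus principal cells, 2 in caput phagocytes and 11 in corpus phagocytes. Cells gated by their own markers gave 1 member in phagocytes between segments, 11 in corpus phagocytes between ages and a class II ratio of 1.72. A log2 limit of 1 left 3 in clear/narrow cells, clusters 11 and 16 alone left 0 in corpus phagocytes between ages and 2 between phagocytes and principal cells, and H2-K1 in clear/narrow cells was 1851 CPM without mitochondrial UMIs against 1487 CPM. The other 376 counts and levels computed under alternatives stayed within 1.5 times the count or 1 SD of the level. For single members, 878 values kept their direction and side of the threshold, 156 kept only their direction, 8 levels moved and the 9 above reversed. Possible doublets could not be left out for endothelial and halo/T cells between segments or for phagocytes between ages, and P42 could not be left out of the ages.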
